A study of Mus musculus with 36 samples.

Results

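Fos, Fosb, Junb, Egr1, Egr2, Arc, Npas4, Nr4a1, Nr4a2 and Dusp1 are immediate early genes, and their transcripts were followed on 36 Affymetrix arrays of brain tissue from mice with an inducible deletion of Dicer. The 10 genes were chosen by name, and every probe set that the platform annotation assigns to 1 of them alone was taken. This gave 16 of the 34945 probe sets annotated to a single gene, and 10 of the 18193 gene names that those probe sets carry. Nr4a2 has 6 probe sets, Egr2 has 2 and the other 8 genes have 1 each. For a gene with several, the most variable probe set in a tissue stands for the gene, and the others are given where they differ.

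Immediate early genes are transcribed within minutes of a stimulus, without the need for new protein, when calcium entry or receptor signalling activates kinases that phosphorylate CREB and the serum response factor complex. In neurons they are the usual readout of recent firing. Most encode transcription factors that switch on later genes, while Arc acts at the synapse and Dusp1 shuts the kinase signal off. Because their messenger RNA is short-lived, the level in a piece of tissue depends on what the animal did shortly before it was killed. The study's methods place the killing a few hours after lights on.

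All mice were C57BL/6J, carried the Camk2a-CreERT2 transgene and were homozygous for the floxed allele (Dicer lox/lox). At 8 weeks of age the cKO animals were injected with tamoxifen, 10 mg in total, and the control animals, which had the same genotype, with the oil and ethanol vehicle at the same frequency. The brain was dissected 4 or 8 weeks after that, and each of the 12 groups of tissue, treatment and time has 3 arrays from 3 animals. The tissues are labelled cortex, hypothalamus and hippocampus. The labels name 25 animals, 12 cKO and 13 control, while the study's methods count 12 mice of each. Cortex control replicate 3 and hypothalamus control replicate 1, both of 4 weeks, carry different animal numbers, each given to no other array. Whether these arrays come from the same mouse is not settled by the labels. The cortex and the hypothalamus shared 11 of them, and the hippocampus came from 12 others. The Camk2a promoter drives the recombinase mainly in excitatory neurons of the forebrain, so other cells of the tissue keep Dicer. Control animals received no tamoxifen, so the deletion and the drug cannot be told apart. Fewer cells of a type and less RNA per cell cannot be told apart in these tissue samples either.

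To show what the genes share at the DNA level, the 250 bases upstream of the transcription start were read from RefSeq (GRCm38.p6) for the 8 members that its promoter table holds, out of 27025 genes. Arc and Egr1 were not matched. The letters TGACG, the core of the site that CREB recognises, were found on either strand in 7 of the 8 windows, all but that of Egr2, and in 17.8% of all genes' windows. The full site TGACGTCA, a palindrome that contains TGACG on both strands, was found in the window of Dusp1 alone, against 1.6% of all genes. TATAAA was found in the windows of Fos and Nr4a2, against 13% of all genes. GCGGGGGCG, a form of the site bound by the Egr proteins, was found in those of Fosb and Nr4a1, against 2.55%. The form GCGTGGGCG was in 0 of 8 windows and in 0.54% of all genes', the NBRE site AAAGGTCA of the Nr4a receptors in 0 of 8 and 1.31%, and the CArG box of serum response factor in 0 of 8 and 1.41%. A match describes these letters in this window and no more.

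The windows of 5 members are shown, those with the most matches and that of Egr2, which has none. They are written from 5′ to 3′ along the gene's strand, ending at the base before the start, with matches on either strand in capitals. Fos lies at chr12:85473640-85473889 on the plus strand, Nr4a1 at chr15:101266596-101266845 on the plus strand, Nr4a2 at chr2:57124004-57124253 on the minus strand, Dusp1 at chr17:26508473-26508722 on the minus strand and Egr2 at chr10:67535249-67535498 on the plus strand, before the most upstream of its 5 annotated starts. In Fos the letters TGACG begin at bases -129 and -66 and TATAAA spans -33 to -28. Nr4a1 and Nr4a2 each hold TGACG at 4 places, and Dusp1 holds its full site at -143 to -136.
Fos: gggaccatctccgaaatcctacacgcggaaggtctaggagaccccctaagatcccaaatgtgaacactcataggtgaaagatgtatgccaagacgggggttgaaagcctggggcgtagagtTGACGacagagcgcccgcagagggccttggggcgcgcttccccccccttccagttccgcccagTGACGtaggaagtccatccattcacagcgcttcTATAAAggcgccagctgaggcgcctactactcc
Nr4a1: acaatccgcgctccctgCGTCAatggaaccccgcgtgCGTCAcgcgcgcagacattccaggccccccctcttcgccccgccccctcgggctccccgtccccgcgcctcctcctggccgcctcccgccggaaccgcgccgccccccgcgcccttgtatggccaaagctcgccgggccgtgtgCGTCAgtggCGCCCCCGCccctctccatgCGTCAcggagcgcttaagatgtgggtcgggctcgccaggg
Nr4a2: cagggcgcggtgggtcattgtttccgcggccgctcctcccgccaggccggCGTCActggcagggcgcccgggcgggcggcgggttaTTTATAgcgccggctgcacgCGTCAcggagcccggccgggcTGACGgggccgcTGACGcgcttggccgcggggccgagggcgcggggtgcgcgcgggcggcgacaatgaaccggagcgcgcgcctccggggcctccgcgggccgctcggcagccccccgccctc
Dusp1: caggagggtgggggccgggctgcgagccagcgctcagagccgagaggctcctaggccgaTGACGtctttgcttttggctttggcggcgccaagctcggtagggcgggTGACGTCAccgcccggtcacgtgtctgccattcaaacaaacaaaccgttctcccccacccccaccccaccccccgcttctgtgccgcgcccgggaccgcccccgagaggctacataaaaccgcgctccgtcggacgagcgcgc
Egr2: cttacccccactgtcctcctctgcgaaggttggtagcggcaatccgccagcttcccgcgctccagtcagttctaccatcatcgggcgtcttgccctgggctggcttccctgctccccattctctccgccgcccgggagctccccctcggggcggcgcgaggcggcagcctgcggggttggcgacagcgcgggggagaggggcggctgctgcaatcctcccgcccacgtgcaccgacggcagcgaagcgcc

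Before the results, the tissues were checked against genes that mark them. Levels are log2 intensities after RMA, which was run for each tissue on its own, so a level set across tissues is approximate and all tests of treatment were made within a tissue. The hypothalamus arrays carried the peptides known from the region: the median of Pmch, melanin-concentrating hormone, was 13.4 there and 4.85 in the cortex. The cortex arrays carried Slc17a7, the vesicular glutamate transporter of forebrain excitatory neurons, at 9.19 to 9.52. In the tissue labelled hippocampus, 11 of the 12 arrays had Slc17a7 at 3.74 to 4.41, while the hypothalamus had it at 4.41 to 4.79. Neurod6, a transcription factor of cortical and hippocampal pyramidal cells, had a median of 3.07 in those 11 arrays and of 7.88 in the cortex. Lct, Dsp and Spink8, genes used to mark hippocampal neurons, had medians of 3.34, 3.43 and 3.57, beside 4.57, 3.39 and 6.47 in the cortex. The hippocampus list as a whole was less clear against the cortex, with medians below it for 5 of 11 markers and below the hypothalamus for 9 of 11. Fibcd1, another of them, was higher in the 11 arrays (6.83) than in the cortex (6.13) or the hypothalamus (5.97).

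The other array of that tissue, cKO 8 weeks replicate 1, stood apart from the 11. It had Slc17a7 at 7.56, Neurod6 at 9.05, Lct at 8.51, Dsp at 8.11 and Spink8 at 8.36. It lay above all 11 others in 10 of 11 hippocampus markers and in 10 of 13 excitatory neuron markers. On 8 transcription factors known from the midbrain, a list chosen after their values were seen, the 11 arrays lay above every cortex and hypothalamus array for all 8, with Pax7 at a median of 8.29 against 2.62 in the cortex. Replicate 1 had Pax7 at 8.10. The tissue is therefore called the tissue labelled hippocampus, and its results are given with and without replicate 1.

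**Figure D1:**
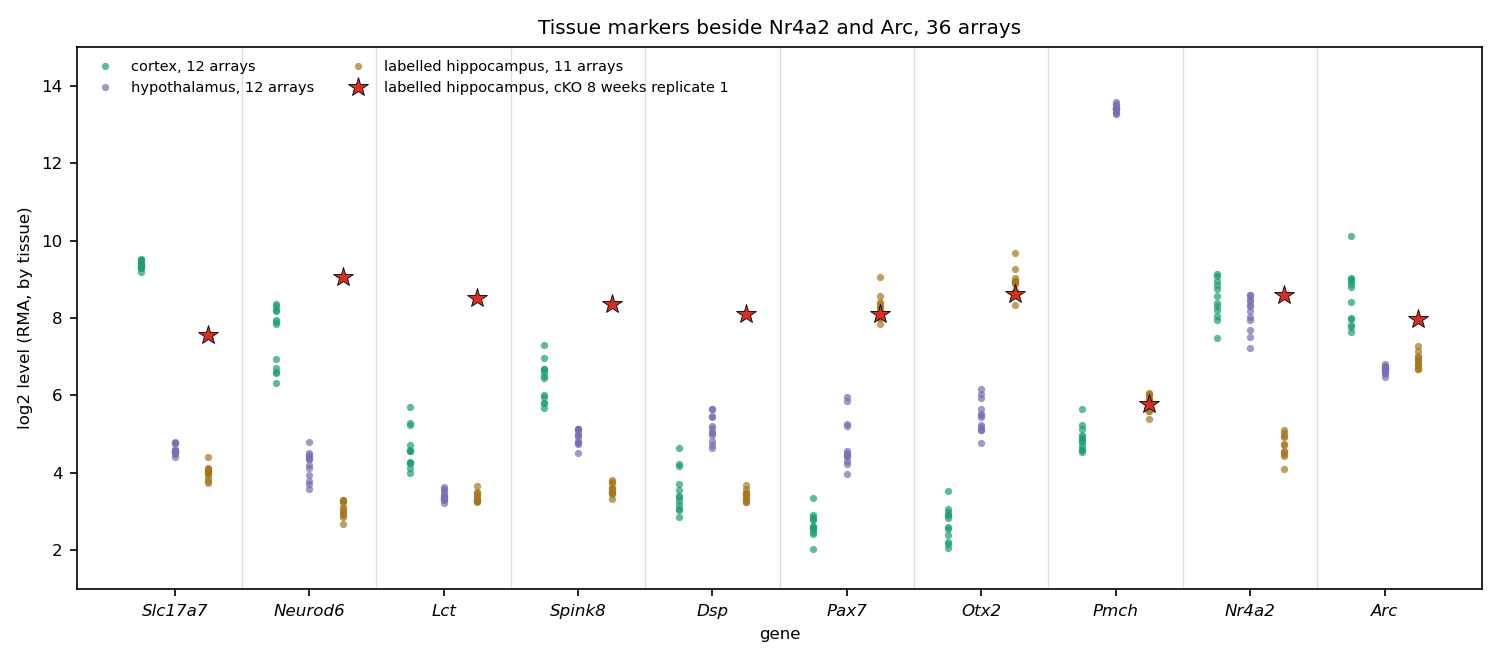
Log2 levels of tissue markers and of Nr4a2 and Arc on all 36 arrays, a point for each array, coloured by tissue, with the star for cKO 8 weeks replicate 1 of the tissue labelled hippocampus. The star lies far above the other 11 arrays of its tissue for Slc17a7 (7.56 against at most 4.41), for Neurod6 and for Nr4a2 (8.59 against at most 5.10).

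Dicer1, the targeted gene, was read by probe sets whose position relative to the deleted exon is not settled by the sources used here, so its level (7.61 to 7.85 in the cortex for the brighter of its probe sets) does not check the deletion. With limma and a false discovery rate of 15%, the threshold in the study's methods, 5.23% of the cortical genes tested were called between cKO and control at 4 weeks, and 0% later. The share at 4 weeks was 0% in a fit of only the 6 arrays compared and 66.0% with weighted arrays. The other tissues had 0% called at either time. At that threshold 0 of 10 immediate early genes were called in the cortex or the hypothalamus and 0 of the 8 tested in the tissue labelled hippocampus, where Fosb and Egr2 were below the filter on low values (0 called by limma in every comparison within a tissue; the counts with an unadjusted p under 0.05 stand with each comparison). So the words higher and lower below give directions of means, not calls.

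In the cortex at 4 weeks the immediate early genes were mixed, 5 higher and 5 lower in cKO, with a median difference of 0.04 on the log2 scale beside 0.11 over all genes, and 0 of 10 had an unadjusted p under 0.05, against 22.6% of all genes. For most members, what set the groups apart to the eye was the control group itself, whose 3 animals covered a wide range. This did not hold for the probe sets used for Nr4a2 (SD 0.12 in controls and 0.58 in cKO), Egr2 (0.24 and 0.28) or Fosb (0.11 and 0.11). Other probe sets differed. The Nr4a2 probe set of the highest mean had 0.78 and 0.14, and the second of Egr2 had 0.45 and 0.23. A further Nr4a2 probe set, with 0.06 and 0.30, went with the one used. Arc, the synaptic effector, was at 7.64, 8.81 and 10.12 in the controls and at 8.95, 9.02 and 8.88 in cKO. The controls thus spanned 2.48 on the log2 scale, a 5.57-fold range, while the cKO animals lay within them. The highest control was replicate 3, named below among the cortex arrays that stand apart. The other controls lay below all cKO animals. The difference of means was 0.09 (SE 0.49, n = 3 each, adjusted p = 0.913 by limma). Npas4, a neuron-specific transcription factor driven by calcium, was at 5.47, 6.48 and 7.24 in the controls and at 6.36, 6.86 and 6.93 in cKO. Its controls spanned 3.41-fold and again enclosed the cKO animals.

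The AP-1 subunits Fos and Junb did much the same. Fos, the classic activity marker, was at 9.08, 9.53 and 10.14 in 4-week cortex controls and at 9.49, 9.25 and 9.29 in cKO, a difference of -0.24 (SE 0.38, adjusted p = 0.688 by limma). Junb, a Jun family partner of Fos, was at 7.01, 7.60 and 8.32 against 7.72, 7.87 and 7.93. For Fos 1 control lay below the cKO animals and 2 above, and for Junb 2 below and 1 above. Fosb was the only member whose groups did not overlap in this comparison, at 5.55, 5.75 and 5.57 in controls and 5.77, 5.99 and 5.84 in cKO. Its difference was 0.24 (SE 0.13, adjusted p = 0.261 by limma). Non-overlapping groups were found for 1 of 10 members, against 19.1% of all genes in the same comparison.

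Nr4a1, an orphan nuclear receptor of the early response, was at 9.07, 9.82 and 10.48 in 4-week cortex controls and at 9.73, 9.75 and 9.77 in cKO. Dusp1, the phosphatase that switches off mitogen-activated kinases, was at 8.97, 10.01 and 10.51 in controls and at 10.02, 10.06 and 10.04 in cKO. The standard deviation over 3 animals was 0.71 against 0.02 for Nr4a1 and 0.78 against 0.02 for Dusp1. Differences of spread were not tested. Without control replicate 3, the controls of Junb and Dusp1 lay below all cKO animals, as those of Arc did. For Fos, Npas4 and Nr4a1 the groups still overlapped or a control stayed above the cKO animals. Egr1, a zinc-finger factor, differed by -0.01 (SE 0.21) and Egr2, its relative, by -0.28 (SE 0.52).

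**Figure D2:**
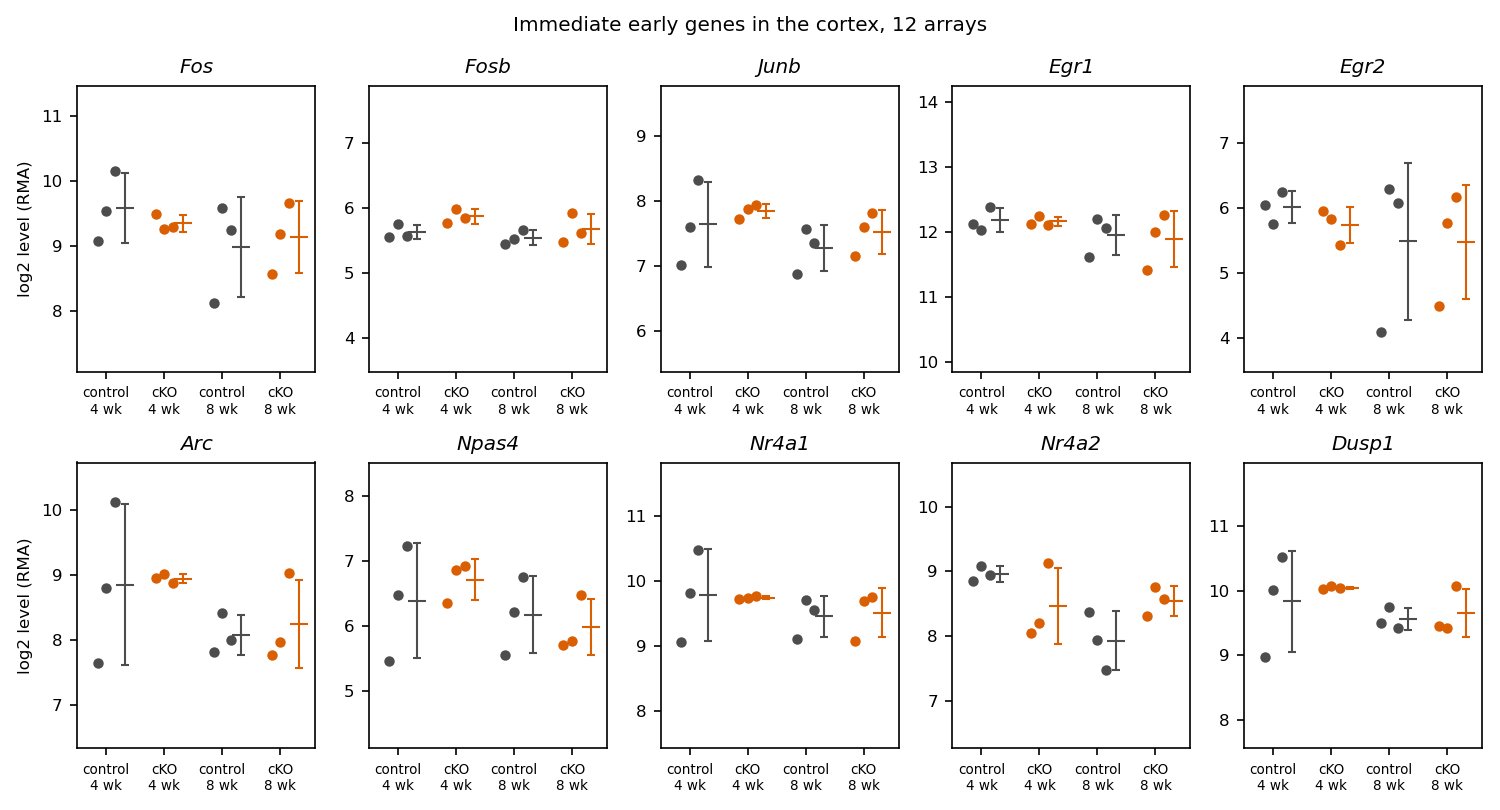
Log2 level of each gene in the cortex by group, 1 point an animal and a bar at the group mean, every panel covering the same span of log2 units. The 3 control animals at 4 weeks spread widely for Arc (7.64 to 10.12), while the cKO animals of that time lie close together (8.88 to 9.02).

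Nr4a2, the second nuclear receptor, showed the largest difference of the members in the cortex at 4 weeks. It was at 8.85, 9.09 and 8.95 in controls and at 8.06, 8.21 and 9.13 in cKO. The first and second cKO animals lay below all controls and the third above all of them. The difference was -0.50 (SE 0.27, adjusted p = 0.281 by limma), lower in 2 of 3 cKO animals. Without cKO replicate 3 it was -0.83 (adjusted p = 0.0327 by limma), and with arrays weighted by their quality -0.74 (adjusted p = 0.0133 by limma). Those fits called 28.5% and 66.0% of all genes. At 8 weeks the direction was the other way: the controls were at 8.38, 7.95 and 7.48 and the cKO animals at 8.31, 8.76 and 8.57, a difference of 0.61 (SE 0.27, adjusted p = 0.869 by limma).

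The probe set used for Nr4a2 decides how that gene reads. Over the 15 pairs of its 6 probe sets, deviations from group means in the cortex had a median correlation of 0.40 over 12 arrays, from -0.28 to 0.84. For the probe set with the highest mean, the 8-week difference in the cortex was -0.37 (adjusted p = 0.933 by limma), opposite in sign to that of the most variable, which is the one used above. The pair of Egr2 probe sets moved together, with correlations of 0.93 (cortex), 0.86 (hypothalamus) and 0.56 (tissue labelled hippocampus).

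The other members differed little between cKO and control in the cortex at 8 weeks, from -0.19 for Npas4 to 0.25 for Junb. Of the 10, 7 were higher and 3 lower in cKO, 0 had non-overlapping groups against 17.5% of all genes, and 1, Nr4a2, had an unadjusted p under 0.05, as had 4.74% of all genes. Spread was again large and now present in both groups. Fos was at 8.11, 9.58 and 9.24 in controls and at 8.56, 9.17 and 9.66 in cKO. Egr2 was at 4.09, 6.28 and 6.07 in controls and at 4.49, 5.76 and 6.16 in cKO, so that 1 animal of each group lay well below the others.

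Between 4 and 8 weeks after injection the mean cortical levels of nearly all members became lower, without a call. In controls all 10 were lower at 8 weeks, with a median of -0.35 on the log2 scale beside -0.016 over all genes, of which 46.0% were higher. Of the 10, 1 had an unadjusted p under 0.05, against 7.73% of all genes. The widest was Nr4a2, from a mean of 8.96 ± 0.12 (SD, n = 3) to 7.94 ± 0.45, where the groups did not overlap (adjusted p = 0.632 by limma). Its probe set of the highest mean ran the other way, at 8.72 ± 0.78 and 8.95 ± 0.09, and the remaining 4 were lower at 8 weeks by 0.05 to 0.39. Arc was lower by 0.78 and Fos by 0.61, as differences of group means. Non-overlapping groups were found for 1 of 10 members, against 17.3% of all genes, and 0.0068% of all genes were called. In cKO 9 of 10 members were lower at 8 weeks, with a median of -0.26 beside -0.10 over all genes, and 0 of 10 had an unadjusted p under 0.05, against 19.8% of all genes. Npas4 was lower by 0.73 and Arc by 0.69, and Nr4a2 alone was higher, by 0.08. Here 0 of 10 had non-overlapping groups, against 25.4% of all genes, and 0% were called. Time and age go together in this comparison, and the dates of tissue collection were not used here.

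The change of the cKO difference from 4 to 8 weeks in the cortex, an interaction term in the same fit, was widest for Nr4a2 at 1.11 (SE 0.39, adjusted p = 0.350 by limma). It was called without cKO 4-week replicate 3, at 1.44 (adjusted p = 0.0103 by limma), in a fit that called 13.1% of all genes. The probe set of the highest mean gave a change of -0.06 (SE 0.42) for Nr4a2, with cKO differences of -0.31 at 4 weeks and -0.37 at 8 weeks. With all arrays 0.0068% of genes were called for this term, and 1 of 10 members had an unadjusted p under 0.05, against 12.3% of all genes. Placing the 4 groups of a gene in the order of their means, neighbours in the cortex overlapped for every member except Nr4a2. Its 4-week controls lay above the 8-week cKO animals next in order. The share of all genes with such a gap was not computed.

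In the hypothalamus at 8 weeks, Fos and Egr2 stood highest in cKO. Fos was at 8.16, 8.66 and 8.75 in controls and at 9.22, 9.21 and 9.04 in cKO. All 3 cKO animals lay above all 3 controls, by 0.64 on the log2 scale or 1.55-fold (SE 0.17, 95% confidence interval 0.27 to 1.00, adjusted p = 0.405 by limma). Egr2 was at 4.82, 4.79 and 4.78 in controls and at 6.62, 5.68 and 4.95 in cKO. Again every cKO animal was above every control, but the excess ran from large to slight among the 3, with a mean of 0.95 (SE 0.34, adjusted p = 0.542 by limma). The second Egr2 probe set gave 2.96, 2.84 and 2.90 in controls and 4.12, 4.03 and 3.37 in cKO, a difference of 0.94 (SE 0.19). These values, and the controls of the first probe set, lay below 4.88, the filter value of the hypothalamus. Egr2 was thus dim in this tissue, with a mean level above 8.07% of the genes tested.

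Junb and Egr1 went the same way as Fos with smaller differences. Junb was at 6.36, 6.65 and 6.32 in 8-week controls and at 6.84, 6.76 and 6.69 in cKO, higher by 0.32 (SE 0.17, adjusted p = 0.815 by limma) with groups that did not overlap. Egr1 was at 9.28, 9.62 and 9.35 in controls and at 9.56, 9.85 and 9.65 in cKO, higher by 0.27 (SE 0.10, adjusted p = 0.564 by limma), with 1 control inside the cKO range. Npas4 went the other way, at 6.40, 6.48 and 6.42 in controls and 6.15, 6.16 and 6.33 in cKO, lower by 0.22 (SE 0.10, adjusted p = 0.737 by limma) without overlap. Arc differed by -0.02, Dusp1 by 0.06, Nr4a1 by 0.09, Fosb by 0.14 and Nr4a2 by -0.21. The members were thus not moving as a block: 7 were higher and 3 lower.

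Groups did not overlap for 4 of 10 members in the hypothalamus at 8 weeks, 3 higher and 1 lower in cKO, against 12.5% of all genes, and 4 of 10 had an unadjusted p under 0.05 (Fos, Egr1, Egr2 and Npas4), against 6.62% of all genes. The median difference was 0.12 over the members and -0.003 over all genes. Calls appeared here only when the fit changed. With weighted arrays 3 members were called: Fos at 0.61 (adjusted p = 0.0988), Egr1 at 0.36 (adjusted p = 0.0798) and Egr2 at 1.00 (adjusted p = 0.10), all by limma, beside 3.61% of all genes. Without cKO replicate 3, Fos at 0.69 (adjusted p = 0.126) and Egr2 at 1.36 (adjusted p = 0.0248) were called by limma, beside 3.32% of all genes.

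Among the 3 cKO animals at 8 weeks, microglia genes had the order of Egr2. Of 15 listed microglia genes 14 were measured, and their median deviation from the tissue mean was 1.86, 1.32 and -0.19 in cKO replicates 1, 2 and 3 at 8 weeks, against -0.50 to -0.17 in the other 9 hypothalamus arrays. In replicates 1 and 2, 13 of the 14 genes lay above all 9 other arrays, and in replicate 3 it was 1 of 14. Egr2 had the same order, at 6.62, 5.68 and 4.95, and Fos, at 9.22, 9.21 and 9.04, was also lowest in replicate 3. In the 4-week controls, which are among the other 9 arrays, Egr2 reached 5.67 and Fos 9.64. Egr2 is known in macrophage lineage cells as well as in neurons. The part of these cells in the Egr2 and Fos differences was not tested. Genes of the leptomeninges, the membranes around the brain, had median deviations of -0.44, -0.62 and 1.58 in the same 3 cKO arrays. In the 8-week controls they were 0.18, -0.64 and 0.87.

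**Figure D3:**
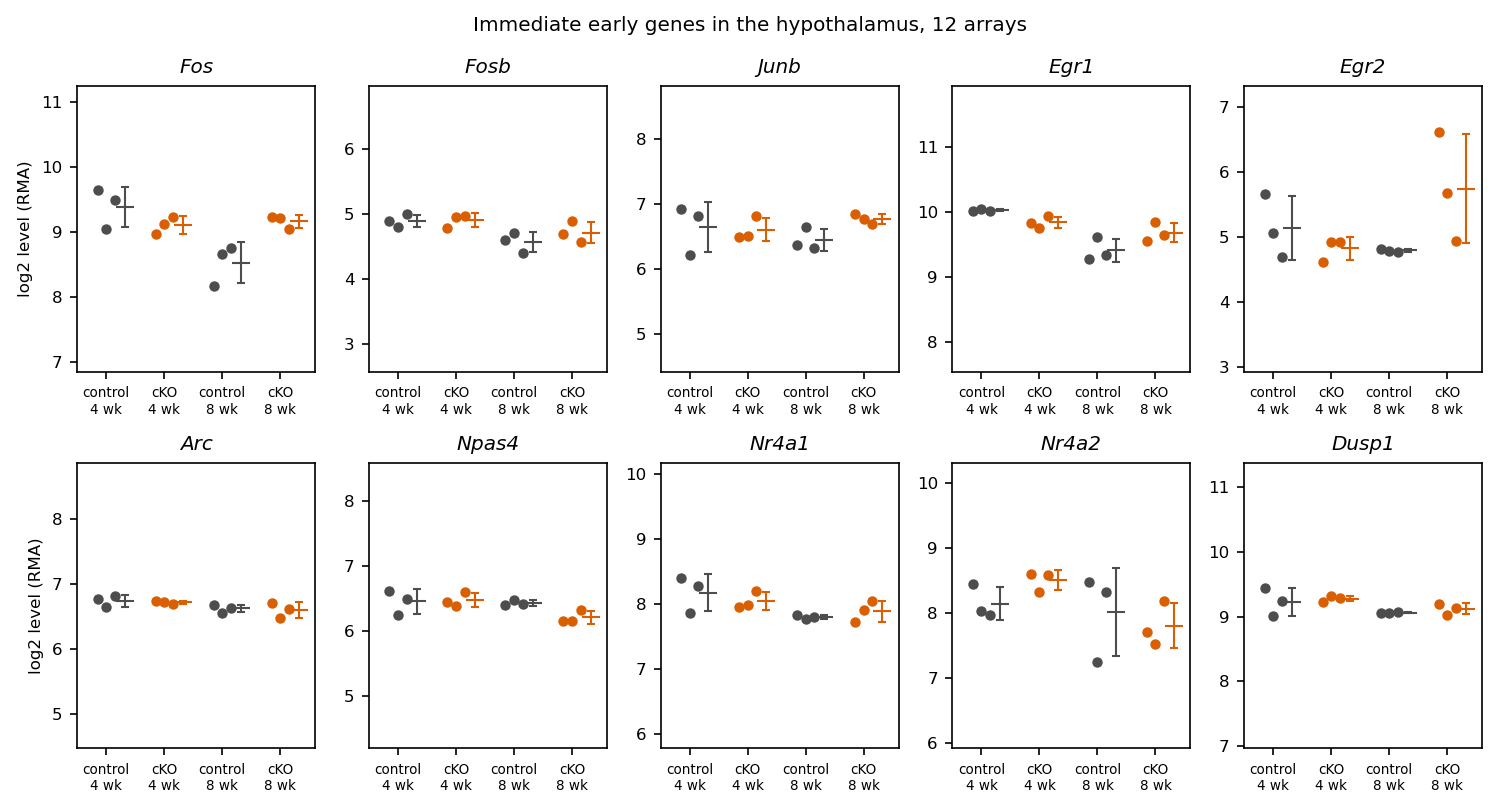
Log2 level of each gene in the hypothalamus by group, 1 point an animal and a bar at the group mean, every panel covering the same span of log2 units. At 8 weeks the 3 cKO animals lie above the 3 controls for Fos (9.04 to 9.22 against 8.16 to 8.75) and for Egr2.

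At 4 weeks the hypothalamus showed smaller differences, 4 members higher and 6 lower in cKO, with 0 of 10 at an unadjusted p under 0.05, against 2.75% of all genes. Egr1 was the only member without overlap, against 6.64% of all genes: it was at 10.02, 10.05 and 10.03 in controls and at 9.84, 9.77 and 9.94 in cKO, lower by 0.18 (SE 0.10, adjusted p = 0.998 by limma). Fos was at 9.64, 9.04 and 9.48 in controls and at 8.97, 9.11 and 9.23 in cKO. Its mean was lower by 0.28 in cKO, with 1 control among the cKO animals. Nr4a2 was higher by 0.36 (SE 0.28).

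From 4 to 8 weeks most members became lower in the hypothalamus of both treatments, without a call. Arc was lower by 0.12 in controls and in cKO, and Dusp1 by 0.17 and 0.16. In hypothalamus controls all 10 members were lower at 8 than at 4 weeks, with a median of -0.26 beside -0.008 over all genes, of which 46.2% were higher. For 4 of them (Fos, Fosb, Egr1 and Nr4a1) the groups did not overlap, against 6.06% of all genes. These 4 also had an unadjusted p under 0.05, against 2.10% of all genes. Fosb was near background in the hypothalamus, with a mean level of 4.77, above 0.64% of the genes tested. Fos was lower by 0.86 (SE 0.17) and Egr1 by 0.62 (SE 0.10, adjusted p = 0.879 by limma), and 0% of genes were called. In cKO 3 members were higher and 7 lower, while 49.9% of all genes were higher. Egr2 was higher at 8 weeks by 0.92 (SE 0.34, adjusted p = 0.463 by limma), and Npas4 and Nr4a2 were lower by 0.27 and 0.70, these 3 and Dusp1 without overlap against 12% of all genes. Of all genes 0.0129% were called in cKO, and 3 of 10 members had an unadjusted p under 0.05, against 8.23% of all genes. Without cKO 8-week replicate 3, Egr2 was called at 1.32 (adjusted p = 0.0276 by limma), beside 3.45% of all genes.

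The change of the cKO difference from 4 to 8 weeks was 0.92 for Fos (SE 0.24), 0.45 for Egr1 (SE 0.14) and 1.26 for Egr2 (SE 0.48), each with an adjusted p of 0.999 by limma. For all 3 the unadjusted p was under 0.05, as for 4.47% of all genes, and 8 of 10 members had a change above 0, against 51.4% of all genes. No gene was called (0%). This change also holds the lower control mean at 8 weeks: for Fos the cKO means were 9.10 and 9.16 at 4 and 8 weeks, and the control means 9.39 and 8.52. In the order of the 4 group means, neighbours did not overlap for Fos (4-week cKO above 8-week control), Egr1 (4-week control above 4-week cKO), Arc (4-week cKO above 8-week control) and Npas4 (8-week control above 8-week cKO). For Arc the gap was narrow, from 6.68 to 6.70. All other neighbours in the hypothalamus overlapped. The share of all genes with such gaps was not computed, so they are not read as a trait of the members.

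**Figure D4:**
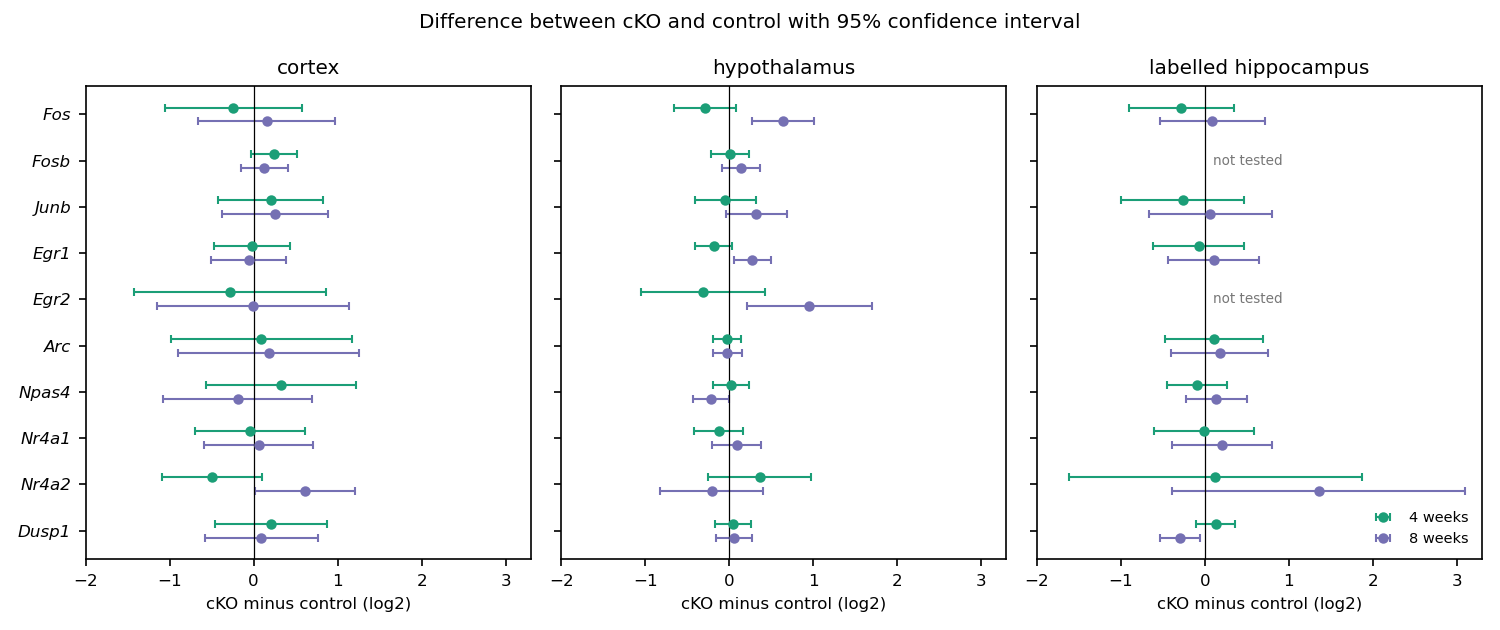
Difference of cKO from control on the log2 scale for each gene and tissue, the point for the limma estimate and the bar for its 95% confidence interval, at 4 and 8 weeks. In the hypothalamus at 8 weeks the intervals of Fos (0.27 to 1.00), Egr1 (0.05 to 0.49) and Egr2 (0.21 to 1.70) lie above 0, and in the tissue labelled hippocampus the interval of Nr4a2 is the widest.

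In the tissue labelled hippocampus 8 members were tested. At 4 weeks they differed little, 3 higher and 5 lower in cKO, with 0 of 8 at an unadjusted p under 0.05 against 6.31% of all genes, and 0 of 8 without overlap against 10%. Fos was at 9.28, 9.34 and 10.30 in controls and at 9.31, 9.67 and 9.10 in cKO, a difference of -0.28 (SE 0.29). The other 7 lay between -0.26 for Junb and 0.13 for Dusp1 and Nr4a2. Fosb at 3.73 to 4.53 and Egr2 at 4.05 to 4.41 were too dim to be tested there.

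At 8 weeks replicate 1 of cKO, the array with hippocampal markers, decided the picture. Nr4a2 was at 4.75, 4.93 and 4.10 in controls and at 8.59, 4.72 and 4.54 in cKO. A single array made the group mean, and the difference of 1.36 (SE 0.80, adjusted p = 0.767 by limma) was 0.03 (SE 0.26) without it. With all arrays kept, the probe set of the highest mean gave -0.03 (SE 0.13). The same array was highest of the 12 for Junb (7.76), Egr1 (10.80), Arc (7.98), Npas4 (6.43) and Nr4a1 (8.87) as well. Of the 8 members 7 were higher and 1 lower in cKO with replicate 1, and without it Junb was lower by 0.44, Arc by 0.21, Nr4a1 by 0.18, Egr1 by 0.15, Fos by 0.09 and Npas4 by 0.06. Its excitatory neuron markers deviated from the tissue mean by a median of 0.82, against -0.44 to 0.04 in the other 11 arrays.

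Dusp1 was the member with an unadjusted p under 0.05 in the tissue labelled hippocampus at 8 weeks, 1 of 8 against 5.91% of all genes. It was at 8.91, 9.16 and 9.05 in controls and at 8.95, 8.69 and 8.58 in cKO. The difference was -0.30 (SE 0.11, adjusted p = 0.767 by limma), with 2 of 3 cKO animals below all controls, and -0.40 (adjusted p = 0.775 by limma) without replicate 1. From 4 to 8 weeks Dusp1 was higher by 0.25 in controls, without overlap, which held for 1 of 8 members against 16.2% of all genes. Its interaction term was -0.43 (SE 0.15, adjusted p = 0.595 by limma). In cKO 6 members were higher and 2 lower at 8 than at 4 weeks, 0 of 8 without overlap against 8.23% of all genes. Between cKO and control at 8 weeks it was 0 of 8 against 14.5%. For these comparisons 0% of genes were called by limma, and of the members 1 of 8 had an unadjusted p under 0.05 in controls over time, 0 of 8 in cKO over time and 1 of 8 for the interaction term, against 5.75%, 5.56% and 8.01% of all genes.

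Whether the treatment acted differently in the tissues was fitted on the genes with the same probe set chosen in both tissues of a pair. These were 10929 genes for the cortex and the hypothalamus, and 10809 for the cortex and the tissue labelled hippocampus. For the cortex minus the hypothalamus 17.1% of genes were called at 4 weeks and 0% at 8 weeks, and for the cortex minus the tissue labelled hippocampus 1.06% and 0%. Of the members 0 were called by limma. The nearest was Nr4a2 between cortex and hypothalamus at 4 weeks, at -0.87 (adjusted p = 0.175 by limma), where the cortex difference was -0.50 and the hypothalamus difference 0.36. Without cortex cKO replicate 3 it was called, at -1.20 (adjusted p = 0.0408 by limma), beside 31.5% of the genes fitted.

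Beyond the groups, the members were among the genes that varied most between animals of the same group in the cortex. The residual standard deviation was 0.77 for Egr2, 0.72 for Arc, 0.60 for Npas4 and 0.55 for Fos, against a median of 0.18 over all genes. These lay above 99.4%, 99.1%, 98.1% and 97.3% of genes. Nr4a1, Dusp1, Junb and Nr4a2 lay above 92.6% to 94.8% and Egr1 above 83.8%, while Fosb, at 0.15, lay above 32.8%. The most variable probe set stands for Egr2 and Nr4a2, as for all genes with several.

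In the hypothalamus the ranking was different. Egr2 at 0.50 and Nr4a2 at 0.41 varied most, above 98.6% and 97.5% of genes, with a median of 0.13 over all genes. Fos and Junb followed, above 90.7% and 90.1%. Arc, among the most variable in the cortex, had a residual standard deviation of 0.08, above 16.3% of genes, and stayed between 6.47 and 6.82 on all 12 arrays. In the tissue labelled hippocampus Nr4a2 lay above 99.97% of genes with replicate 1 of 8-week cKO and above 96.5% without it. Fos lay above 97.6% and 98.2%, and Dusp1 above 42.7% and 28.4%.

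The cortical members varied together. Over the 45 pairs of 10 genes, the correlation of deviations from group means over 12 arrays had a median of 0.59, and 40 pairs were above 0, while the median over all pairs of genes was 0.061. Junb with Nr4a1 reached 0.98 and Arc with Dusp1 0.97, and the lowest was Egr2 with Nr4a2 at -0.39. Leaving out 1 array at a time gave medians of 0.49 to 0.67. In the hypothalamus the median was 0.25 (34 of 45 pairs above 0) and in the tissue labelled hippocampus 0.78 (28 of 28), or 0.54 without replicate 1 of 8-week cKO. Arrays of a tissue share 1 normalization, so these are descriptions of the 12 arrays.

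The same pattern can be read animal by animal. Among cortex arrays the median deviation of the members from the tissue mean was -0.37, 0.18 and 0.74 in the 4-week controls and 0.13, 0.25 and 0.22 in the 4-week cKO animals. At 8 weeks it was -0.60, -0.01 and -0.05 in controls and -0.58, -0.01 and 0.23 in cKO. Control replicate 1 and cKO replicate 1 at 8 weeks had 0 of 10 members above the tissue mean, and control replicate 3 at 4 weeks had 9 of 10. The same 9 of 10 was found in 4-week control replicate 2, 4-week cKO replicates 1 and 3 and 8-week cKO replicate 3. By the median deviation, the lowest arrays were thus 1 of each treatment, and the highest was a control. In the 4-week cortex, markers of the leptomeninges deviated by -0.51, -0.28 and 0.02 in controls and by 0.52, 0.45 and 0.32 in cKO, and nuclear-retained transcripts by 0.38, 0.40 and 0.41 against -1.15, -0.39 and 0.58. Their part in the member values was not tested.

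**Figure D5:**
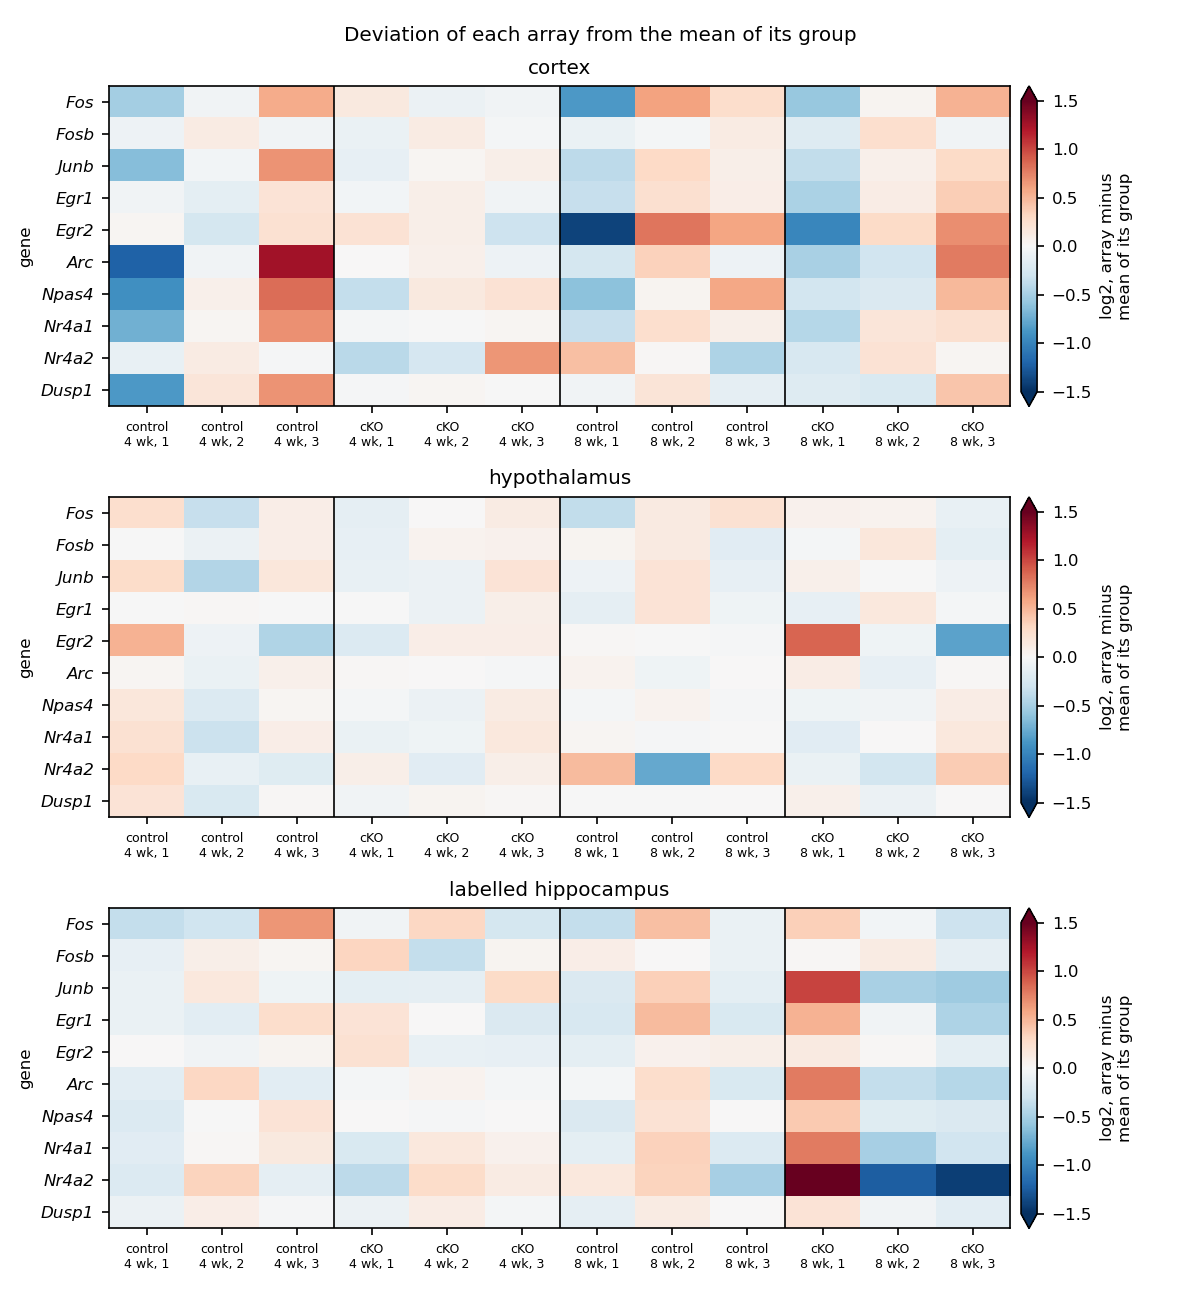
Deviation of every array from the mean of its own group on the log2 scale, for each gene (rows) and array (columns) in the 3 tissues, red above and blue below the mean. In the cortex the columns of 4-week control replicates 1 and 3 are blue and red for most genes, and in the tissue labelled hippocampus 8-week cKO replicate 1 is red for all 8 genes tested.

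For 11 animals the labels name both cortex and hypothalamus, so the deviations could be set against each other within animals. The 4-week control arrays with unmatched numbers, cortex replicate 3 and hypothalamus replicate 1, were not paired. The median deviations of the members from the group mean were 0.62 and 0.22 in these arrays. The correlation was above 0 for 9 of 10 members. It was 0.71 for Nr4a1, with a Spearman rho of 0.70 (exact permutation p = 0.188 and 0.15, 11 animals, two-sided), and 0.66 for Npas4, with a rho of 0.63 (exact permutation p = 0.0926 and 0.0880). Leaving out the 2 animals farthest from the median in the cortex gave 0.42 for Nr4a1 and 0.82 for Npas4. Egr2 had -0.56 (exact permutation p = 0.0718) with a rho of -0.55 (exact permutation p = 0.0556). Over the 10 correlations 0 passed the Benjamini-Hochberg adjustment, the lowest adjusted p being 0.463 for r and 0.424 for rho, where the smallest p the 432 permutations within groups could give was 0.00231.

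Other genes of the pathway were looked at in lists. Between cKO and control in the cortex at 4 weeks, 1 of 21 other rapid transcription factors rose: Jun, a partner of the Fos proteins, by 0.53 (SE 0.11, adjusted p = 0.0942 by limma). The list's median was 0.14, with 16 genes higher and 5 lower, against 0.11 over all genes, of which 67.3% were higher and 5.23% were called. Jun was between 0.48 and 0.56 under 15 other settings and called in 10 of them. The call was lost with the replicate block (adjusted p = 0.182 by limma) and without cKO replicate 1 or 2 or control replicate 1 or 2 (adjusted p = 0.235 to 0.348 by limma). Among 23 other rapid effectors and feedback genes 1 rose, Ptgs2, the inducible cyclooxygenase, by 0.54 (SE 0.17, adjusted p = 0.148 by limma). Of 23 upstream kinases and transcription factors, Elk1, a serum response factor partner, rose by 0.46 (adjusted p = 0.134 by limma) and Mef2a, an activity-dependent factor, fell by 0.68 (adjusted p = 0.143 by limma). The calls of Ptgs2, Elk1 and Mef2a were lost when the arrays were centred or quantile normalized, with the replicate block (adjusted p = 0.223 to 0.226 by limma) and without cKO replicate 1 or 2 or control replicate 1 or 2 (adjusted p = 0.328 to 0.402 by limma). With the probe set of the highest mean Ptgs2 was at -0.08 and Mef2a at 0.11. Of 15 delayed activity genes 0 were called by limma, with 1 at an unadjusted p under 0.05, and the nearest was Crh, corticotropin-releasing hormone, at -0.86 (adjusted p = 0.169 by limma).

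In the other 14 comparisons within a tissue 0 genes of these 4 lists were called by limma. For the hypothalamus at 8 weeks the medians were 0.04 for the rapid transcription factors, 0.08 for effectors and feedback genes, -0.12 for delayed genes and 0.00 for upstream genes, and 2 of 21, 3 of 22, 3 of 15 and 1 of 23 had an unadjusted p under 0.05, against 6.62% of all genes. Atf3, a stress-induced transcription factor, was higher in cKO by 0.50 (adjusted p = 0.410 by limma). Dusp4, a phosphatase like Dusp1, was lower by 0.38 (adjusted p = 0.425 by limma).

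Among the 13636 genes tested in all 3 tissues, those whose deviations most resembled the mean of the members were Slc25a22 (mean correlation over the tissues 0.84, 12 arrays each), Ybx1 (0.83), Icam5 (0.79), Btg2 (0.78), Cep152 (0.76), Camta2 (0.75), Plpbp (0.74), Egr4 (0.74), Rsrp1 (0.74) and Taf6l (0.73). The median over all genes was 0.06 and the top 1% began at 0.60. Btg2 and Egr4 are themselves rapid response genes on the pathway lists. Without replicate 1 of 8-week cKO in the tissue labelled hippocampus, 3 of the 10 were still among the first 10, namely Rsrp1 (0.73), Plpbp (0.70) and Btg2 (0.69).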

How the data were processed

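RNA of 36 tissue samples was labelled and hybridised to Affymetrix mouse genome arrays. The deposited values are log2 intensities that the authors made with RMA, run for each tissue separately (version not given in the sources used here), and they were used as they are. Detection calls were not used. To filter low values, each tissue's probe sets were sorted on the 3rd highest array and the most variable one was chosen per gene. The number of genes retained was the number the study's methods give for the tissue. The methods count probe sets there, before the choice per gene, while a figure legend of the study calls the cortex number genes. If probe sets are meant, the filter used here is the looser one. This left out genes whose 3rd highest array was below 4.30 (cortex), 4.88 (hypothalamus) or 4.64 (tissue labelled hippocampus). With 3 arrays a group, their number limits the precision, and an exact permutation test of 3 against 3 cannot go below 0.1. Probe sets with several annotated genes (932) or none (9160) were no members.

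Each tissue was fitted once with its 4 groups in limma 3.58.1 (R 4.3.3), which gave the differences, their errors and p-values. P-values were adjusted over all genes tested by the Benjamini-Hochberg method, with a false discovery rate of 15% as in the study's methods. Tables were made with Python 3.11.15, pandas 2.3.3, numpy 2.4.6 and scipy 1.17.1. The fit across tissues kept the animal as a random block (statmod 1.5.0) where tissues shared animals. The scripts were tested on simulated data. The members and lists were chosen with earlier results of these data known, and the midbrain list after its values were seen. Every member that passed the filter was tested in every comparison within a tissue, but not every member is named in each. Besides members, up to 3 genes of each pathway list with the lowest p and the 10 genes most like the members are named. Same-numbered replicates were checked for shared deviations. In the hypothalamus at 8 weeks the correlations were 0.20, 0.26 and 0.27, all above 0.1, and the numbers were taken to pair those arrays. The labels themselves do not pair cKO with control arrays. The differences, errors and p-values given above come from the fit without this pairing, and a fit with the replicate number as a block is given below. In the other tissues and times at least 1 pair was lower.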

Additional observations from a re-analysis of the deposited data

How the results depend on the processing

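Over 19 comparisons, 2330 member values were recomputed under another normalization, filter, probe set choice, variance model, array weighting, set of arrays or block. Of these, 2298 stayed within 1 residual SD without a change of call, 15 moved further, 16 were called where the reported value was not, and 1 changed sign from an unadjusted p under 0.05. The change of sign was Nr4a2 in the cortex at 8 weeks, which was -0.37 with the probe set of the highest mean. Array weights gave 2 called members in the cortex at 4 weeks (Fosb at 0.23 and Nr4a2 at -0.74, in a fit that called 66.0% of all genes) and 3 in the hypothalamus at 8 weeks (Fos, Egr1 and Egr2), in place of 0. Leaving out 3 cortex arrays that stand apart (4-week control replicate 3, 4-week cKO replicate 3 and 8-week cKO replicate 2), a choice made after seeing the data, gave 1 called member at 4 weeks, Nr4a2 at -0.84 (adjusted p = 0.0236 by limma), with 62.0% of all genes. Leaving out 1 array at a time, the number of members called ranged from 0 to 1 in the cortex at 4 weeks (Nr4a2 without cKO replicate 3, and Junb, at 0.54 with an adjusted p of 0.122 by limma, without control replicate 3), from 0 to 1 in the cortex from 4 to 8 weeks in cKO (Fosb at -0.32 without 8-week replicate 2) and from 0 to 1 for the cortical interaction term. In the hypothalamus it ranged from 0 to 2 at 8 weeks, from 0 to 1 over time in cKO and from 0 to 2 for the interaction term (Fos at 0.98 and Egr2 at 1.67), all without 8-week cKO replicate 3. Between cortex and hypothalamus at 4 weeks it ranged from 0 to 1. In all other comparisons 0 members were called under every alternative run. An unpaired t-test, which the study's methods use outside the expression data, was run for cKO against control at each time in each tissue. Adjusted by Benjamini-Hochberg, it called 0 members in each of these. The number of all genes called in the cortex at 4 weeks, 769, was 0 in a fit of the 6 arrays compared or without control replicate 2. It was 1 without control replicate 1, 2 or 3 without cKO replicate 2 or 1, 3 with the replicate block and 1 by the t-test. After quantile normalization it was 89, with centred arrays 227 and with array weights 9706. In the hypothalamus at 8 weeks it was 558 with array weights and 514 without cKO replicate 3, in place of 0. With the probe set of the highest mean, Ptgs2 (-0.080) and Mef2a (0.11) changed sign in the cortex at 4 weeks. The cause of these changes was not tested.

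Over all alternatives Fos in the hypothalamus at 8 weeks ranged from 0.45 to 0.75, Egr2 from 0.52 to 1.36 and Nr4a2 in the cortex at 4 weeks from -0.84 to -0.29. With the replicate number as a block, the fit changed no call of a member, though it ended those of Jun, Ptgs2, Elk1 and Mef2a in the cortex at 4 weeks: in the hypothalamus at 8 weeks Fos was at 0.64 (SE 0.18, adjusted p = 0.340 by limma), Egr2 at 0.95 (adjusted p = 0.425) and Egr1 at 0.27 (adjusted p = 0.513). The 8-week cortex arrays carry the same animals under the same numbers, with correlations of 0.003, 0.002 and 0.21 between same-numbered arrays. The block gave 1 level to each number over both times of a tissue. It thus also joined arrays that share only a number. Fosb and Egr2 near background in the tissue labelled hippocampus could not be tested there.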
